A study of Mus musculus with 2 samples.

Results

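Maf, Prdm1, Ahr, Irf4, Batf, Nfil3 and Bhlhe40 encode transcription factors that are known to act on Il10, the gene of the anti-inflammatory cytokine IL-10. They were taken by name, as a list of genes and not by their values, though earlier results of these data were known. All 7 were found among the 28009 genes listed in both UMI tables. For each gene the level and the share of cells with a transcript were compared between tissues and, within each tissue, between cells with 0, 1 and 2 or more Il10 UMIs at equal depth.

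IL-10-producing CD4+ T cells were sorted from small intestine and spleen of anti-CD3-treated IL-10eGFP Foxp3mRFP double reporter mice, in which eGFP reports IL-10 and mRFP reports Foxp3. The mice were adult, had been injected repeatedly with the T-cell activating antibody anti-CD3, and were killed within hours of the last. Foxp3+ cells were part of the sort, and neither untreated mice nor IL-10-negative cells were analysed here. There was 1 library of the 10X technology per tissue, so that tissue and library cannot be told apart, and how many mice gave cells to a library is not given in the sources used here.

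A unique molecular identifier (UMI) counts each captured RNA molecule once. The intestinal library counted 5693395 UMIs over 1474 cell barcodes and the splenic one 11103530 over 1738, and 0 barcodes occurred in both. After quality filters and the removal of cells in G2/M, 1278 intestinal cells (median 3696 UMIs) and 1469 splenic cells (median 5408 UMIs) were kept. Levels are given in CPM, the UMIs of a gene per 1000000 UMIs of the cells described. Shares of cells and all values by Il10 class come from cells thinned at random to 2000 UMIs each, which 1170 intestinal and 1446 splenic cells reached. Brackets hold 95% intervals, exact Poisson for levels, exact binomial for ratios and Clopper-Pearson for shares. They cover counting error only, and no test over samples was possible with 1 library per tissue.

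IL-10 is made by many kinds of activated CD4+ T cells, among them type 1 regulatory (TR1) cells, and no single lineage factor controls it. c-MAF, the product of Maf, binds the Il10 locus and promotes its transcription in several T helper lineages, and AHR, a receptor for small ligands, and BLIMP-1, encoded by Prdm1, are known to act beside it. IRF4 and BATF are induced by T-cell receptor signals and bind DNA together, NFIL3 is a leucine zipper factor that favours Il10 in T helper cells, and BHLHE40 is known as a repressor of Il10.

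The cells carried the transcripts of T cells. At least 1 UMI of the 3 listed T-cell receptor complex genes Cd3e, Cd3d and Cd3g was found in 99.7% of intestinal and 99.9% of splenic cells, and Cd4 in 73.1% and 67.0%. Cd8a or Cd8b1 was found in 16.0% of intestinal cells and Cd8b1 in 7.15% of splenic cells, where Cd8a was at 0. Lists of 5 B-cell, 3 plasma-cell, 2 NK-cell and 2 mast-cell markers summed to at most 14.1 CPM in either tissue. The 5 epithelial markers summed to 17.7 CPM in the small intestine and 32.2 CPM in the spleen, of which Epcam made up 31.7 CPM. The myeloid list summed to 143 and 167 CPM, of which Cst3 made up 142 and 156 CPM. In the small intestine Lyz2 was at 0, and Csf1r and Fcer1g were found in 0.156% of cells each. In the spleen Csf1r was at 0, but Lyz2 was found in 2.52% of cells and Fcer1g in 1.84%. As the sorts held T cells, no other cell type gave a background share for the 7 genes.

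In the GRCm38 annotation Maf (ENSMUSG00000055435) lies on chromosome 8 from 115682942 to 115707794, Prdm1 (ENSMUSG00000038151) on chromosome 10 from 44437177 to 44528501 and Ahr (ENSMUSG00000019256) on chromosome 12 from 35497974 to 35535038. Irf4 (ENSMUSG00000021356) lies on chromosome 13 from 30749226 to 30766976 and Batf (ENSMUSG00000034266) on chromosome 12 from 85686669 to 85709087. Nfil3 (ENSMUSG00000056749) lies on chromosome 13 from 52967209 to 52981073 and Bhlhe40 (ENSMUSG00000030103) on chromosome 6 from 108660629 to 108666925. All 7 are protein coding. On the opposite strand, Gm15655 overlaps Maf and had 5 intestinal and 4 splenic UMIs, and 0610040F04Rik overlaps Bhlhe40 and had 0 and 3. Whether the counting used strand is not given in the sources used here.

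Promoters from RefSeq (GRCm38.p6) were found for 4 of the 7 genes, and these 4 are shown. Maf, Ahr and Bhlhe40 had no entry. Each line gives the 250 bases before the RefSeq start, 5′ to 3′ on the strand of the gene, and all 4 windows overlap the gene spans given above, those of Batf, Irf4 and Nfil3 in part and that of Prdm1 as a whole. Capitals mark matches on either strand to short forms of the factors' own motifs, namely TGANTCA for BATF with JUN, GAAAG for BLIMP-1, GCGTG for AHR, TTANNTAA for NFIL3, CACGTG for BHLHE40 and TGCTGA for MAF. The matches shown do not overlap one another.
Prdm1 (chr10:44458749-44458998, minus strand): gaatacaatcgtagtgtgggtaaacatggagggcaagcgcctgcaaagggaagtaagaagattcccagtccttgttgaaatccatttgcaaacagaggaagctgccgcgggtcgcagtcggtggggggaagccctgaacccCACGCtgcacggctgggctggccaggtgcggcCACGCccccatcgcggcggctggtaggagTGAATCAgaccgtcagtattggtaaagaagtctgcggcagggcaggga
Nfil3 (chr13:52981040-52981289, minus strand): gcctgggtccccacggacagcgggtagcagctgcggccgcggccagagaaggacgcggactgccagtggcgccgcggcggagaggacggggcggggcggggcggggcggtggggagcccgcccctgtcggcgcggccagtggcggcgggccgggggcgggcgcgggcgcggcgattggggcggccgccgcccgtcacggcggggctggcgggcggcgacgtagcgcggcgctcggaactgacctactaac
Batf (chr12:85686470-85686719, plus strand): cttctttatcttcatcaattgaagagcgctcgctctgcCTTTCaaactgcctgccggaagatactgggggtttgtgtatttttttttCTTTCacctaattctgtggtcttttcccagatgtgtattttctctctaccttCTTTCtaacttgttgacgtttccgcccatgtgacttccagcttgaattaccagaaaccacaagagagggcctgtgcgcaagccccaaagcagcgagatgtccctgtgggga
Irf4 (chr13:30748983-30749232, plus strand): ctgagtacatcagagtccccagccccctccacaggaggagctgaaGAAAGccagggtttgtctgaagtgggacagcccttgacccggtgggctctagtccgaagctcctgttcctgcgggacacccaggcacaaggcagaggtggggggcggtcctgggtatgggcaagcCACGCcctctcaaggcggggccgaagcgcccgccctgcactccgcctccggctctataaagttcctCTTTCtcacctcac
The Prdm1 promoter held 1 match to the BATF form and 2 to the AHR form, and that of Batf 3 matches to the BLIMP-1 form. The Irf4 promoter held 2 matches to the BLIMP-1 form and 1 to the AHR form, and none of the letters searched for occurred in that of Nfil3, which had 81.6% G and C. Of all 32851 promoters of this length, 6.75% held the BATF form, 51.5% the BLIMP-1 form and 28.2% the AHR form. The forms for NFIL3, BHLHE40 and MAF, held by 5.43%, 6.02% and 16.1% of all promoters, were in none of the 4. These matches describe letters and are not evidence of binding.

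Between tissues, Irf4 and Batf were higher in the spleen, Bhlhe40 was higher in the small intestine, and the other 4 factors differed by less than 1.5-fold. Past 1.5-fold in the direction of the spleen were 2 of the 7 genes, beside 24.2% of all 9034 genes with at least 50 UMIs. In the direction of the small intestine it was 1 of 7, beside 21.3%. The median log2 ratio of spleen over small intestine was 0.22 over the 7 genes and 0.02 over all genes tested.

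Maf had 524 CPM in the small intestine (504 to 544) and 609 CPM in the spleen (593 to 625), a log2 ratio of spleen over small intestine of 0.22 (0.15 to 0.28). At equal depth 54.1% of intestinal cells (51.2 to 57.0) and 64.2% of splenic cells (61.7 to 66.7) had a Maf UMI, and before thinning 70.9% and 85.1%. This difference was not the same in all subsets of cells. When the 121 intestinal cells with both Cd8a and Cd8b1 UMIs were left out, the log2 ratio was 0.04 (-0.03 to 0.10), and with every cell at 2000 UMIs it was 0.37.

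Prdm1 had 86.8 CPM in the small intestine (78.9 to 95.3) and 71.5 CPM in the spleen (66.1 to 77.2), a log2 ratio of -0.28 (-0.46 to -0.10). Its share of cells at equal depth was 15.6% (13.5 to 17.8) and 11.96% (10.3 to 13.7), and 27.5% and 29.1% before thinning. The unthinned shares thus stood in the opposite order to the levels, with splenic cells the deeper ones. Ahr had 45.3 CPM in the small intestine (39.6 to 51.6) and 66.0 CPM in the spleen (60.9 to 71.5), a log2 ratio of 0.54 (0.32 to 0.77). An Ahr UMI was found at equal depth in 8.80% of intestinal (7.24 to 10.6) and 11.3% of splenic cells (9.75 to 13.1), whose intervals overlap, and before thinning in 14.8% and 27.3%.

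The pair of factors that act downstream of the T-cell receptor stood apart from these. Irf4 had 19.1 CPM in the small intestine (15.4 to 23.3) and 75.5 CPM in the spleen (70.0 to 81.4), a 3.96-fold difference and a log2 ratio of 1.99 (1.68 to 2.31). Its share of cells at equal depth was 3.33% in the small intestine (2.38 to 4.53) and 12.7% in the spleen (10.98 to 14.5), and 6.57% and 27.0% before thinning. Batf had 186 CPM (175 to 199) and 377 CPM (364 to 390), a 2.02-fold difference and a log2 ratio of 1.02 (0.91 to 1.12). A Batf UMI was found at equal depth in 28.7% of intestinal (26.1 to 31.4) and 49.4% of splenic cells (46.8 to 52.1), and before thinning in 44.1% and 78.8%. For both genes, neither the intervals of the levels nor those of the shares overlapped between the tissues.

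Nfil3 had 89.6 CPM in the small intestine (81.5 to 98.3) and 73.5 CPM in the spleen (68.0 to 79.2), a log2 ratio of -0.29 (-0.46 to -0.11). With every cell at 2000 UMIs the ratio of Nfil3 was -0.12 (-0.39 to 0.15), an interval that held 0. Its shares at equal depth were 15.6% (13.6 to 17.9) and 14.9% (13.1 to 16.9), which overlap, and before thinning 25.1% and 31.7%. Bhlhe40, the repressor of Il10 among the 7, had 243 CPM in the small intestine (230 to 257) and 68.2 CPM in the spleen (63.0 to 73.8), a 3.56-fold difference and a log2 ratio of -1.83 (-1.98 to -1.69). A Bhlhe40 UMI was found at equal depth in 35.2% of intestinal (32.5 to 38.0) and 11.8% of splenic cells (10.1 to 13.5), and before thinning in 50.9% and 25.5%. Il10 itself had 597 CPM in the small intestine (576 to 618) and 476 CPM in the spleen (462 to 491), with an Il10 UMI in 58.6% and 44.7% of cells at equal depth and in 72.5% and 64.9% before thinning. Il10 and its known repressor were thus both higher in the intestinal library.

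**Figure D1:**
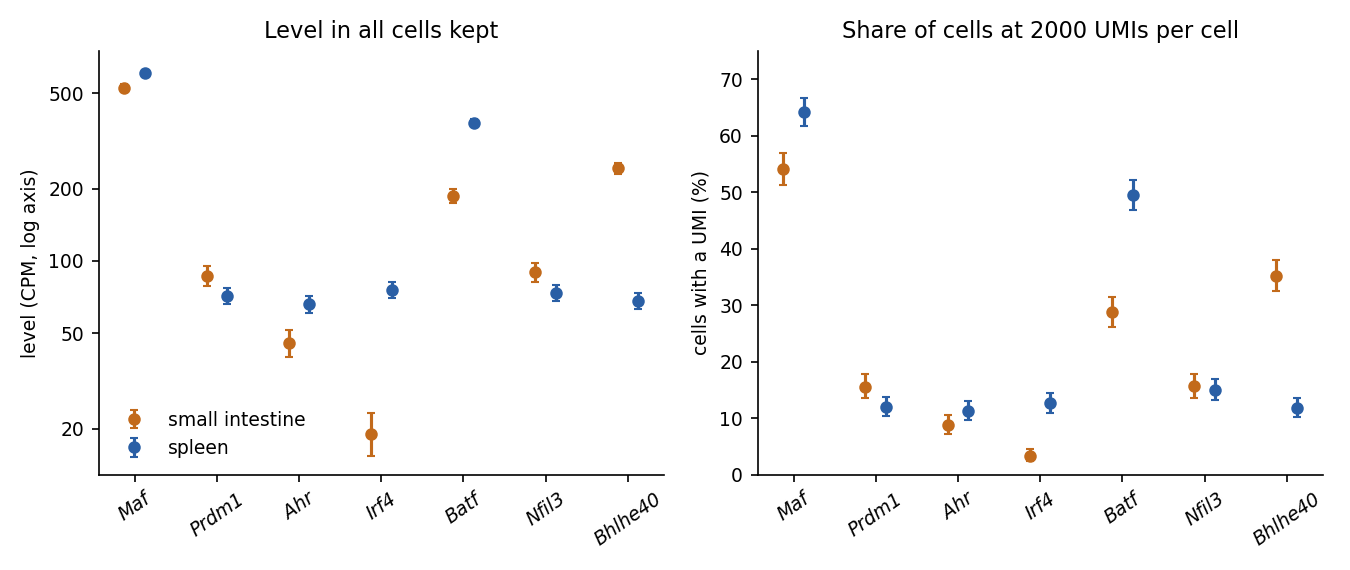
Left, level of each factor in CPM on a log axis, and right, percent of cells with at least 1 UMI at 2000 UMIs per cell, in the library of the small intestine (orange) and of the spleen (blue). Points are 1 library each and bars 95% counting intervals. Irf4 (19.1 and 75.5 CPM) and Batf (186 and 377 CPM) lie higher in the spleen and Bhlhe40 (243 and 68.2 CPM) in the small intestine, in both panels.

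Lists of genes related to these 7 were counted in the same way. Each count of a list between tissues stands beside 24.2% of all genes in the direction of the spleen and 21.3% in the other. Of the AP-1 and IRF genes listed beside Batf and Irf4, 1 of 6 with at least 50 UMIs was at least 1.5-fold higher in the spleen. In the other direction it was 3 of 6, and the median log2 ratio was -0.78. Irf8, a relative of Irf4, had 686 CPM in the spleen and 75.7 CPM in the small intestine (log2 ratio 3.18, 3.03 to 3.33). Irf4 and Irf8 were thus higher in the spleen, but not every IRF gene was. Irf2, of the same list, was at -0.13 (-0.32 to 0.07), and Irf1, of another list, at -0.90. The AP-1 genes Fosl2 (log2 ratio -1.79), Jun (-1.45) and Junb (-1.38) were higher in the small intestine, opposite to Batf. Jund, the other AP-1 gene measured in this list, was at -0.18 (-0.23 to -0.14).

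Of 6 measured regulators known from TR1 cells, 1 was at least 1.5-fold higher in the spleen and 5 in the other direction, with a median of -1.24. Id2 had 453 CPM in the spleen and 2138 CPM in the small intestine, Stat3 170 and 475 CPM and Rora 34.7 and 92.0 CPM, while Egr2 had 15.2 and 6.56 CPM. Of the factors that keep T cells quiescent or repress effector genes, 4 of 8 were at least 1.5-fold higher in the spleen and 2 in the other direction (median 0.91). Tcf7 had 132 CPM in the spleen and 9.34 CPM in the small intestine, and Klf2 had 270 and 25.8 CPM. Both are genes of resting T cells.

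Of 5 T helper lineage factors, 2 were at least 1.5-fold higher in the spleen, among them Foxp3 with 51.2 against 7.55 CPM, and 2 in the small intestine, among them Gata3 with 58.6 against 27.8 CPM (median 0.35). Of 13 factors of receptor and cytokine signals, 2 were at least 1.5-fold higher in the spleen and 5 in the other direction (median -0.39), Fos with a log2 ratio of -2.12 and Stat4 of -1.19 among the latter. Arnt, the DNA-binding partner of AHR, and Tiparp, a target of AHR, were the 2 measured of 6 genes of that list, and both were higher in the small intestine (log2 ratios -1.16 and -0.80), opposite to Ahr. Of the Maf family, 0 of 4 measured genes were at least 1.5-fold higher in the spleen and 1, Maff, in the small intestine (median -0.22). Of the clock-linked relatives of Nfil3 and Bhlhe40, 1 of 4 was at least 1.5-fold higher in the spleen, Dbp (log2 ratio 0.91), and 3 in the small intestine, Tef (-2.45), Nr1d2 (-1.45) and Per1 (-1.31), with a median of -1.38. Of 9 measured cytokine genes, 4 were at least 1.5-fold higher in the spleen, such as Il4 with 9.28 against 0.397 CPM, and 5 in the small intestine, such as Ifng with 354 against 60.1 CPM (median -0.70).

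Within each tissue the cells, all sorted as IL-10-producing, were then divided by the Il10 UMIs found in 2000 UMIs. Of the intestinal cells 484 had 0, 320 had 1 and 366 had 2 or more, and of the splenic ones 800, 317 and 329. A cell with 0 Il10 UMIs at this depth is one in which no transcript was drawn and is not shown to lack it.

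In the spleen Prdm1 and Nfil3 were the factors that differed most with Il10 in the thinning reported, with smaller differences of Maf and Batf. The size of each difference depended on the thinning. For Nfil3, Ahr and Irf4 so did whether the interval held 0. Of the 7 genes, 2 were past 1.5-fold in the direction of cells with 2 or more Il10 UMIs, beside 7.09% of all 4680 genes tested, and 0 in the other direction, beside 4.83%. The median log2 ratio was 0.43 over the 7 genes and 0.08 over all genes.

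Splenic cells with 0, 1 and 2 or more Il10 UMIs had 44.4 CPM (34.7 to 56.0), 96.2 CPM (73.6 to 124) and 109 CPM (85.6 to 138) of Prdm1. The share of cells with a Prdm1 UMI was 8.37%, 15.8% and 17.0%. The log2 ratio of the cells with 2 or more over those with 0 was 1.30 (0.81 to 1.80), or 2.47-fold, and the intervals of the levels did not overlap between them. Nfil3 had 64.4 CPM (52.5 to 78.1), 93.1 CPM (70.8 to 120) and 128 CPM (102 to 158) in the same classes, a log2 ratio of 0.99 (0.55 to 1.42). Its share was 11.6%, 17.3% and 20.7%. The size of the Nfil3 difference depended on which UMIs the thinning drew. It ranged from 0.36 to 1.09 over 6 thinnings, was 0.76 with 20 thinnings pooled, and had an interval without 0 in 5 of the 6. The difference of Prdm1 ranged from 0.94 to 1.30, was 1.10 pooled, and had an interval without 0 in 6 of 6.

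Maf had 589 CPM (552 to 628) in splenic cells with 0 Il10 UMIs, 830 CPM (760 to 904) in those with 1 and 792 CPM (725 to 863) in those with 2 or more. The log2 ratio was 0.43 (0.27 to 0.58), the lowest of 6 thinnings (0.43 to 0.65, 0.55 pooled), with an interval without 0 in all 6. The share of cells with a Maf UMI was 58.9%, 69.7% and 72.0%. In the thinning reported, the step thus lay between 0 and 1 Il10 UMI and the upper classes overlapped. Batf had 335, 431 and 441 CPM, with a log2 ratio of 0.40 (0.18 to 0.60) and the same step. That ratio was 0.35 to 0.58 over 6 thinnings and 0.45 pooled. Irf4 had 71.2, 85.2 and 98.8 CPM, with a log2 ratio of 0.47 (0.01 to 0.92), which was the highest of 6 thinnings (0.16 to 0.47, 0.33 pooled) and the 1 whose interval did not hold 0. Ahr had 64.4, 53.6 and 77.5 CPM (log2 ratio 0.27, -0.25 to 0.77) and Bhlhe40 73.1, 83.6 and 65.3 CPM (log2 ratio -0.16, -0.70 to 0.35). For Ahr this was the lowest of the 6 thinnings (0.27 to 0.68, 0.45 pooled), and in 3 of them the interval did not hold 0. For Bhlhe40, at -0.16 to 0.23, it held 0 in all 6.

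Among intestinal cells Maf was the factor that differed most clearly with Il10. Of 6 genes with at least 50 UMIs, 0 were past 1.5-fold in the direction of Il10, beside 4.09% of all 3983 genes tested, and 0 in the other, beside 3.14%. The median log2 ratio over the 6 was 0.17, against 0.03 over all genes. Maf had 432 CPM (391 to 475), 558 CPM (501 to 619) and 639 CPM (583 to 700) in intestinal cells with 0, 1 and 2 or more Il10 UMIs, a log2 ratio of 0.57 (0.37 to 0.76). Its share of cells was 47.3%, 54.7% and 62.6%. The ratio was 0.49 to 0.73 over 6 thinnings.

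Bhlhe40 had 235, 231 and 298 CPM in the same classes, with a log2 ratio of 0.34 (0.07 to 0.62) and 0.34 to 0.60 over the thinnings. The repressor was thus not lower in intestinal cells with more Il10 UMIs, although the sign turned at 1000 UMIs per cell (-0.04). Prdm1 had 85.7, 95.3 and 87.4 CPM (log2 ratio 0.03, -0.47 to 0.52), Batf 185, 169 and 173 CPM (-0.09, -0.43 to 0.24) and Nfil3 84.7, 90.6 and 105 CPM (0.31, -0.16 to 0.78). Ahr had 53.7, 51.6 and 41.0 CPM (-0.39, -1.09 to 0.28) and Irf4, with only 44 UMIs in all, 18.6, 18.8 and 19.1 CPM (0.04, -1.08 to 1.13). The sign for Ahr, Prdm1 and Batf changed between thinnings, and that ratio of Irf4 was the lowest of 6 (0.04 to 0.92, 0.56 pooled), so that neither a difference nor its absence was shown for these 4 at this depth.

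**Figure D2:**
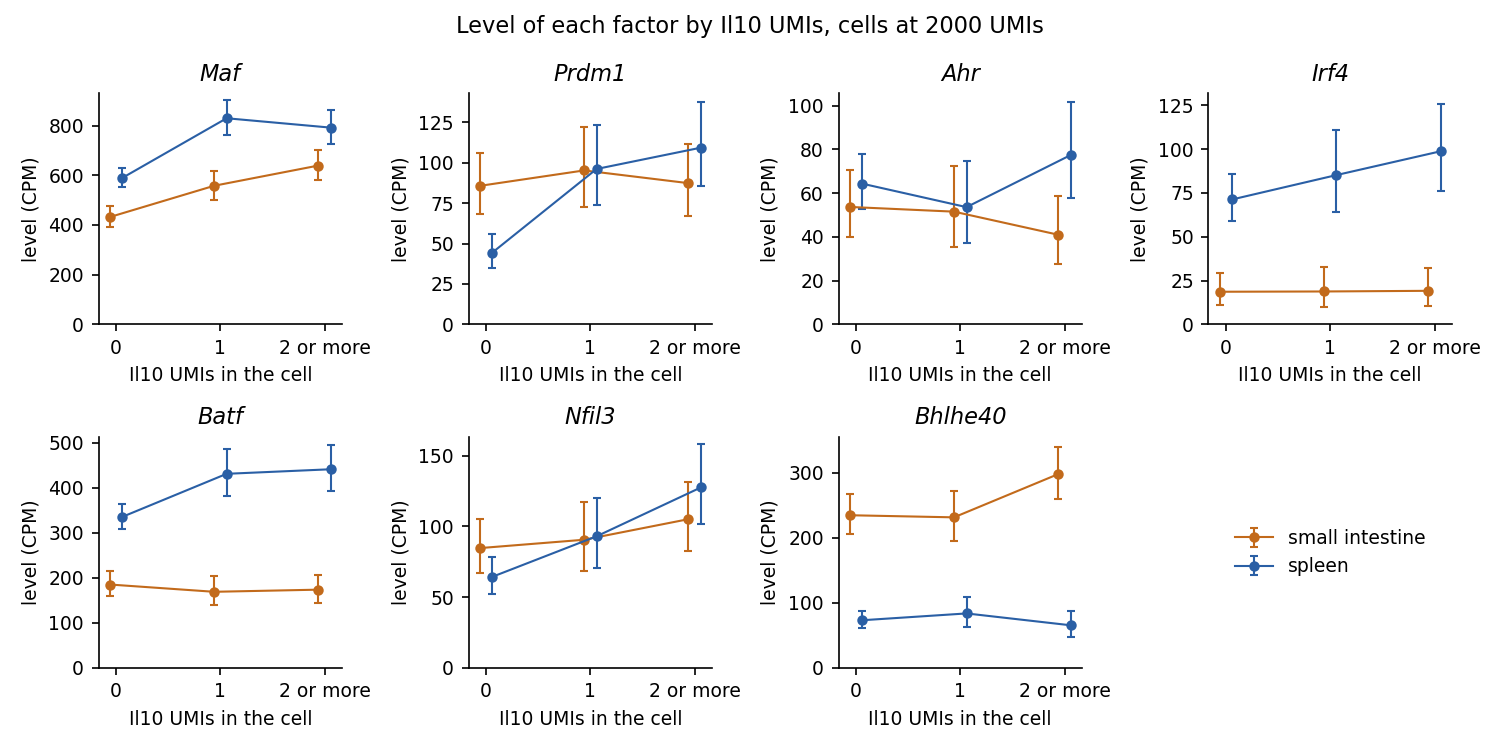
Level of each factor in CPM (vertical axes from 0, own scale per panel) in cells with 0, 1 and 2 or more Il10 UMIs, small intestine in orange and spleen in blue, all cells at 2000 UMIs with bars for 95% counting intervals. Maf lies higher with Il10 in both tissues (432 to 639 CPM and 589 to 792 CPM), Prdm1 in the spleen (44.4 to 109 CPM), where the intestinal line stays between 85.7 and 95.3 CPM.

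The differences with Il10 were then compared between the tissues. In the thinning reported, the splenic log2 ratio minus the intestinal one was 1.27 for Prdm1 (0.61 to 1.94), 0.68 for Nfil3 (0.06 to 1.29) and 0.49 for Batf (0.10 to 0.88), with intervals from the counts of the 4 classes by a normal approximation. It was -0.14 for Maf (-0.39 to 0.10), 0.66 for Ahr (-0.15 to 1.47), 0.43 for Irf4 (-0.67 to 1.53) and -0.51 for Bhlhe40 (-1.08 to 0.06). Over the 6 thinnings it ranged from 0.86 to 1.65 for Prdm1 (1.10 with 20 pooled), from 0.21 to 0.57 for Batf (0.40), from 0.03 to 0.89 for Nfil3 (0.50) and from 0.12 to 0.76 for Ahr (0.36). That of Irf4 was above 0 in 1 of 6 (-0.57 to 0.43, -0.23 pooled) and that of Maf in 1 of 6 (-0.25 to 0.16, -0.08 pooled), and that of Bhlhe40 was below 0 in all 6 (-0.70 to -0.23, -0.37 pooled). The lowest value of Prdm1 was above the lowest of each of the other 6 factors, and its highest value above the highest of each. The ranges of Prdm1 and Nfil3 overlapped, as the lowest value of Prdm1 (0.86) was below the highest of Nfil3 (0.89). For Prdm1 as for the other 6 factors, the size of the difference depended on the UMIs drawn. Other settings moved Prdm1 in both directions. With G2/M cells kept, its log2 ratio with Il10 was 0.66 for splenic and 0.07 for intestinal cells. Splenic Nfil3 (0.66) and Batf (0.63) were then close to Prdm1. Before thinning, the ratio of Prdm1 was 1.60 for splenic and -0.14 for intestinal cells. Why the settings differed was not tested. In the thinning reported, Prdm1 was below its intestinal level in the splenic cells with 0 Il10 UMIs. In those with 2 or more the intervals of both tissues overlapped. With 1 library per tissue these are differences between 2 libraries.

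The classes also differed in other ways. The median UMIs per splenic cell before thinning were 5300, 5656 and 6103 in cells with 0, 1 and 2 or more Il10 UMIs, and 3790, 3827 and 3846 in the small intestine. The 6 markers of naive or central memory cells summed to 1079, 692 and 530 CPM in the splenic classes, and the 6 cycling markers to 1518, 1563 and 2029 CPM. A Foxp3 UMI was found in 6.62%, 8.52% and 9.42% of the splenic cells and a Cd8b1 UMI in 15.7%, 9.06% and 6.56% of the intestinal ones. Within 4 bins of the depth before thinning, an alternative chosen after seeing the data, the splenic log2 ratios were 1.28 for Prdm1, 1.03 for Nfil3, 0.47 for Maf and 0.42 for Batf. Without the cells with a Foxp3 UMI, Maf was at 0.59 in the spleen. Without the cells with both Cd8a and Cd8b1 UMIs, Maf was at 0.56 (0.37 to 0.75) in the small intestine.

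Graph clusters made without Il10 and the 7 genes took unequal shares of the classes. Splenic cluster 7, led by Klf2, Tcf7 and Pdcd4, held 16.6% of the cells with 0 Il10 UMIs and 0.304% of those with 2 or more, which was 1 cell. Splenic cluster 8, led by Ncl, Eif5a and Mif, held 14.0% and 2.43%. Compared within clusters, also chosen after seeing the data, the splenic log2 ratio was 0.69 for Prdm1, 0.66 for Nfil3, 0.44 for Irf4 and 0.16 for both Maf and Batf. Prdm1 was higher with Il10 in the 7 of 8 splenic clusters that gave a ratio, in none of them beyond counting error by itself. Cluster 7 gave no ratio, with 0 Prdm1 UMIs in both classes. Cluster 8 rested on 1 Prdm1 UMI against 2, and cluster 5 on 3 against 4. In the small intestine the ratio for Maf was 0.36 within clusters, higher in 5 of 6. That for Bhlhe40 was 0.09 and that for Prdm1 0.02. The ratios within clusters were thus smaller than those over all cells for splenic Prdm1, Nfil3, Maf and Batf and for intestinal Maf and Bhlhe40.

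**Figure D3:**
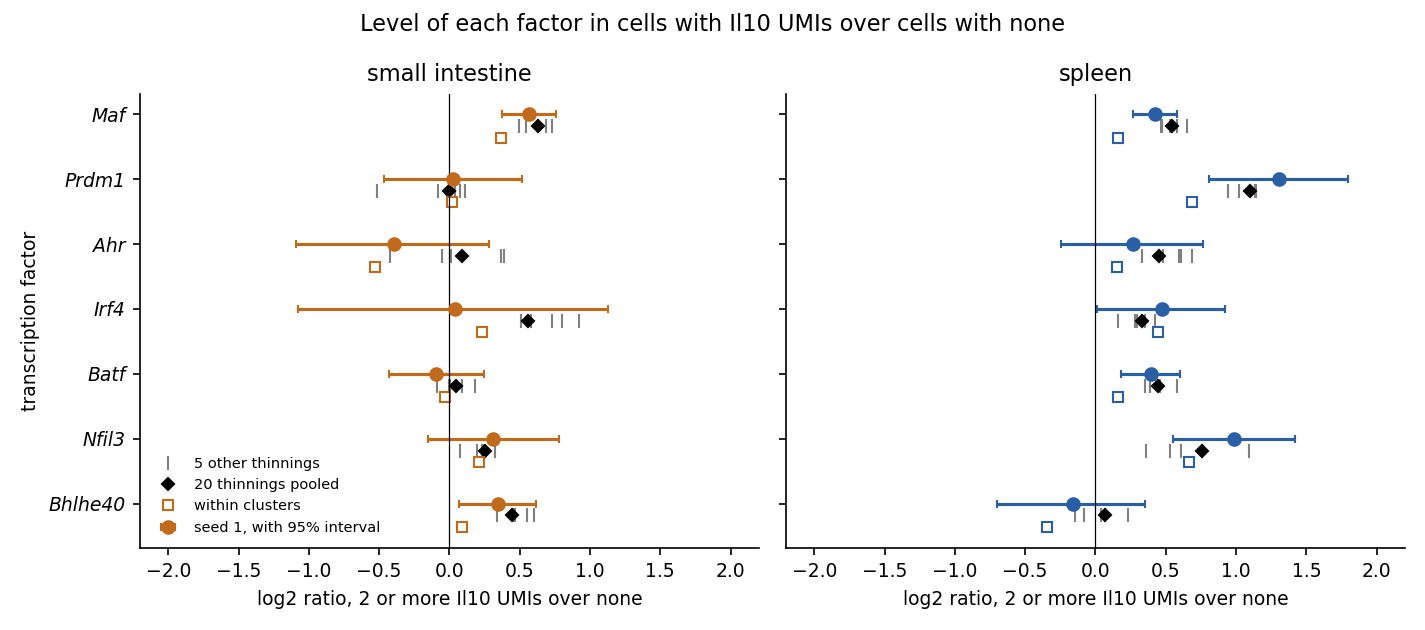
Log2 ratio of each factor's level in cells with 2 or more Il10 UMIs over cells with none, small intestine left and spleen right. Filled circles with bars are the reported thinning with 95% counting intervals, ticks 5 other thinnings, diamonds 20 thinnings pooled and open squares the ratio within clusters. In the spleen Prdm1 lies at 1.30 (0.69 within clusters) and Maf at 0.43 (0.16 within clusters), and in the small intestine Maf lies at 0.57 and Prdm1 at 0.03.

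Of the other lists by Il10 class, 3 genes of resting T cells were lower beside Il10 in the spleen. Of all splenic genes tested, 7.09% were past 1.5-fold with Il10 and 4.83% in the other direction. In the small intestine it was 4.09% and 3.14%. Of 7 measured quiescence factors and repressors, 0 were past 1.5-fold with Il10 and 3 in the other direction, beside 4.83% of all genes (median log2 ratio -0.29). These were Lef1 (-1.39, -2.00 to -0.83), Tcf7 (-1.12, -1.54 to -0.73) and Klf2 (-1.02, -1.30 to -0.75). In the small intestine 0 of 5 were past 1.5-fold in either direction (median -0.30), with Klf2 at -0.36 (-1.24 to 0.48). Tcf7, Lef1 and Bach2 had fewer than 50 UMIs there and were not among the 5. In cells with 2 or more Il10 UMIs against those with 0, Tcf7 had 0 against 13 UMIs and Lef1 9 against 25 (-1.07, -2.35 to 0.08). Bach2 had 6 against 6 (0.40, -1.50 to 2.31). Of the receptor and cytokine signal factors, 0 of 12 were past the fold with Il10 in the spleen and 2 in the other direction (median -0.18), Jun at -0.73 and Stat5b at -0.66, and 0 of 11 in either direction in the small intestine (median 0.13). Of the AP-1 and IRF genes listed beside Batf and Irf4, Fosl2 was at 0.70 and Irf8 at 0.43 with Il10 in the spleen. Jun, in both lists, was at -0.73, so that 1 of 6 was past the fold in each direction (median 0.11). Among intestinal cells it was 0 of 6 (median 0.24), with Junb at 0.47 (0.38 to 0.56).

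The TR1-linked regulators, 5 measured in each tissue, had 0 past the fold in both tissues (median -0.10 for spleen and 0.30 for small intestine), with Stat3 at 0.38 in the spleen and Irf1 at 0.58 in the small intestine. The lineage factors had 0 of 3 past it in the spleen, where Foxp3 was at 0.57 (-0.05 to 1.16), and 0 of 2 in the small intestine, with medians of 0.41 and 0.35. Of the cytokine genes 1 of 3 was past it with Il10 in the spleen (median 0.52), beside 7.09% of all genes. In the small intestine it was 2 of 4 (median 0.40), beside 4.09%. Ifng was among them in both (0.91 and 0.65), with Tnf in the small intestine (0.86). Mafg was the 1 measured gene of the Maf family (log2 ratio 0.17 for spleen and 0.21 for small intestine). Of the remaining lists, those of AHR and of the clock, none was measured in the spleen and Tiparp (-0.10) and Tef (-0.03) in the small intestine.

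Seen from the factors, the share of splenic cells with an Il10 UMI was 42.4% in cells without a Prdm1 UMI, 56.5% in those with 1 and 88.5% (69.8 to 97.6) in the 26 cells with 2 or more. For Nfil3 the shares were 42.5%, 55.3% and 69.2% (48.2 to 85.7, 26 cells), and for Batf 40.8%, 45.7% and 54.2%. For Maf they were 36.4%, 46.1% and 51.8% in the spleen and 52.5%, 61.4% and 66.2% in the small intestine. Maf and Irf4 were the factors for which the share was higher in each class than in the one before in both tissues, for intestinal Irf4 by little (58.6%, 58.8% and 60.0%, the last of 5 cells). For Prdm1 the intestinal shares were 58.5%, 58.0% and 68.0% (46.5 to 85.0, 25 cells).

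Few cells held transcripts of many of the factors at once. At 2000 UMIs a splenic cell had on average 1.60, 1.92 and 2.02 of the 7 factors in the classes with 0, 1 and 2 or more Il10 UMIs, and an intestinal cell 1.52, 1.60 and 1.74. The share of splenic cells without any was 17.4% (14.8 to 20.2), 8.20% (5.43 to 11.8) and 6.69% (4.24 to 9.95), and that of intestinal cells 17.4%, 14.4% and 14.5%. Among the splenic cells with 0, 1, 2, 3, 4 and 5 or more factors, 25.7%, 40.0%, 50.8%, 50.8%, 55.7% and 64.3% had an Il10 UMI. In the small intestine it was 54.1%, 54.8%, 63.1%, 59.8%, 71.2% for 0 to 4 factors and 5 of the 10 cells with more. The splenic share without any factor (19.6 to 32.6) lay below all other splenic intervals, and the intestinal intervals overlapped with their neighbours.

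**Figure D4:**
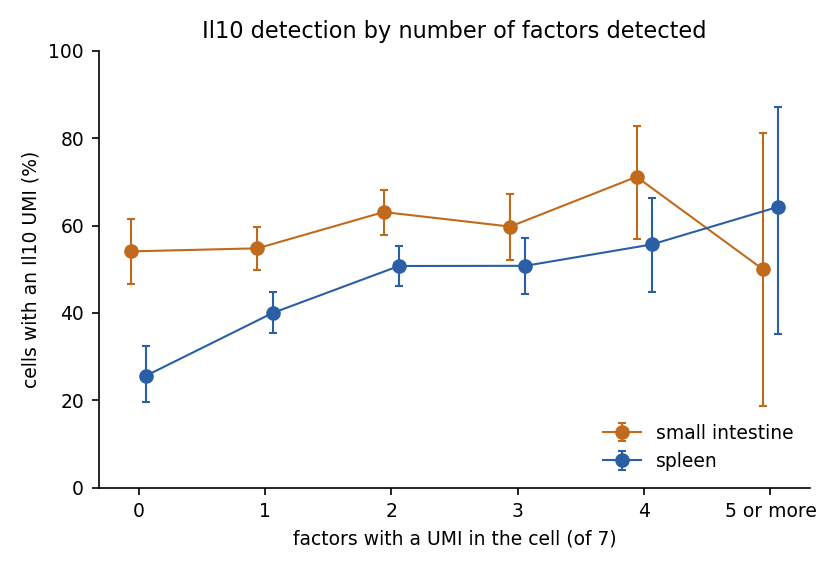
Percent of cells with at least 1 Il10 UMI by the number of the 7 factors with a UMI in the same cell, at 2000 UMIs per cell, small intestine in orange and spleen in blue, with 95% counting intervals. The spleen goes from 25.7% of cells with none to 64.3% of those with 5 or more, and the small intestine has 71.2% at its highest, in cells with 4.

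Of the 42 pairs of factors in both tissues, cells with both were mostly near the product of the 2 shares. The pair farthest above it was Ahr and Irf4 in the spleen, with 38 cells against 20.8, or 1.83 times the product. Ahr and Nfil3 were found together in 17 splenic cells against 24.5. Maf and Batf, the most widely detected factors in the spleen, were together in 487 cells (33.7%) against 459. Clusters of cells share such counts, and the pairs are given as a description.

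The widest ranges between clusters of 1 tissue were 25.2-fold for Prdm1 and 12.6-fold for Maf, and that for Irf4 (3.83-fold) was below its 3.96-fold difference between the tissues. In the spleen, 6 of the 7 factors, all but Irf4, and Il10 were lowest in cluster 7, the one led by Klf2 and Tcf7, in which the 6 naive or central memory markers summed to 2708 CPM, the highest sum of the 8 clusters. Prdm1 ranged from 111 CPM (93.1 to 131) in cluster 4, led by S100a6, Lgals1 and Nkg7, to 4.41 CPM (0.91 to 12.9) in cluster 7, and 6 of the 7 pairs of neighbours in that order had overlapping intervals. At equal depth 0 of 144 cells of cluster 7 had a Prdm1 UMI, which by the limit of 3 counts allows a share of up to 2.08% (Clopper-Pearson upper bound 2.53%), although the cells were not shallow (median 4363 UMIs). Cluster 8 had 7.001 CPM of Prdm1 and 404 CPM of Maf, with a median of 6884 UMIs per cell. Nfil3 ranged from 135 CPM in cluster 1, led by Tnfrsf9, Tnfrsf4 and Ctla4, to 11.8 CPM in cluster 7, with 5 of 7 pairs of neighbours overlapping. Cluster 1 was also the splenic cluster highest in Foxp3 (139 CPM) and in Il10 (653 CPM). The 5 markers of Foxp3+ regulatory T cells summed to 4434 CPM there, the highest sum of the 8 clusters.

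Maf ranged in the spleen from 1008 CPM (947 to 1073) in cluster 3, led by Tnfsf8, Maf and Tnfrsf4, to 244 CPM (208 to 284) in cluster 7, and 2 of the 7 pairs of neighbours overlapped. Irf4 (123 CPM) and Ahr (91.9 CPM) were highest in the same cluster, with all 7 pairs of neighbours overlapping for each. The 5 follicular helper markers summed to 2114 CPM there and to 2010 CPM in cluster 5, led by Malat1, Btg1 and Izumo1r. Cluster 5 had 498 CPM of Maf, 90.6 CPM of Irf4 and 68.4 CPM of Ahr. Batf ranged from 474 to 200 CPM and Bhlhe40 from 132 to 23.5 CPM, both from cluster 4 to cluster 7 and both with 6 of 7 pairs overlapping. Irf4 was lowest in cluster 4 (49.0 CPM), the cluster in which Prdm1, Batf and Bhlhe40 were highest.

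Intestinal Prdm1 ranged less widely, from 96.1 CPM (76.1 to 120) in cluster 2 to 73.8 CPM (54.9 to 97.0) in cluster 4, and all 5 pairs of neighbours overlapped. Maf ranged from 782 CPM (715 to 854) in cluster 3, led by Ccl5, Lag3 and Tnfrsf4, to 61.9 CPM (45.2 to 82.9) in cluster 5, led by Gzma, Cd7 and Cd8a, a 12.6-fold difference, with 4 of 5 pairs overlapping. A Maf UMI was found at equal depth in 67.9% of the cells of cluster 3 and 7.80% of those of cluster 5 (median 3459 and 4324 UMIs). Cluster 5 was also lowest in Bhlhe40 (110 CPM, against 353 CPM in cluster 6), Ahr (15.1 CPM, against 83.9 CPM in cluster 4) and Il10 (283 CPM, against 766 CPM in cluster 1). Its Cd8a and Cd8b1 summed to 2164 CPM, the highest sum of the 6 clusters, and its Cd4 was at 164 CPM.

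Intestinal cluster 4, led by Capg, Emb and Tmsb10, had the highest Nfil3 (152 CPM, against 45.0 CPM in cluster 2) and Ahr, and its 6 Th17 markers summed to 1230 CPM, against at most 37.7 CPM in the other 5 clusters. Batf ranged from 258 CPM in cluster 6 to 152 CPM in cluster 3 and Irf4 from 29.7 to 7.76 CPM in the same clusters. For Ahr and Irf4 all 5 pairs of neighbours overlapped, and for Batf, Nfil3 and Bhlhe40 4 of 5.

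**Figure D5:**
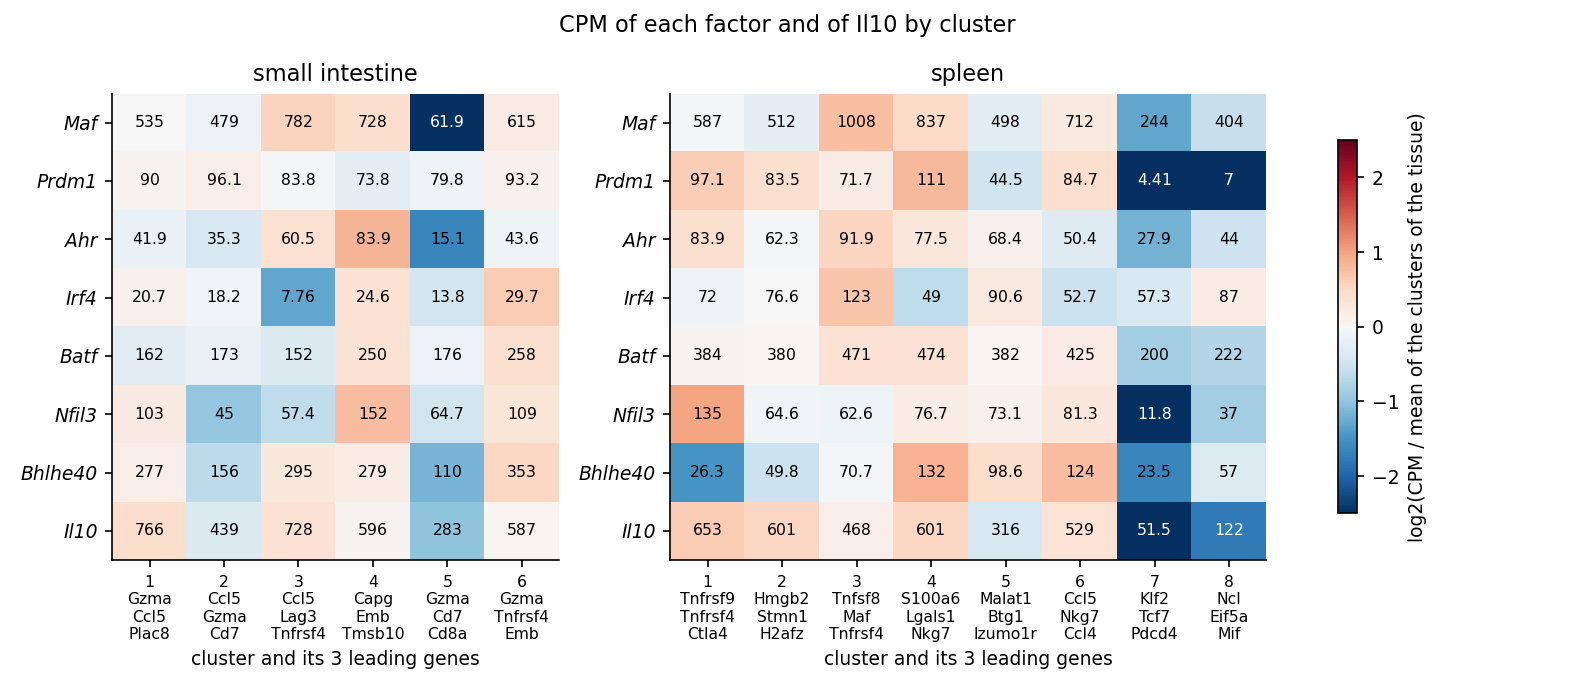
CPM of each factor and of Il10 (numbers in the cells) in the 6 clusters of the small intestine and the 8 of the spleen, named by their 3 leading genes. Colour is the log2 ratio to the mean of the tissue's clusters and saturates beyond 2.5. Splenic clusters 7 and 8 are low in Prdm1 (4.41 and 7.001 CPM) and Il10 (51.5 and 122 CPM), and intestinal cluster 5 in Maf (61.9 CPM).

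Over the 14 clusters, with the mean of each tissue subtracted from log2(CPM + 10), Prdm1 followed Il10 most closely of the 7 (Pearson's r = 0.92). The r with Il10 was 0.81 for Nfil3, 0.76 for Batf, 0.72 for Ahr, 0.64 for Maf, 0.52 for Bhlhe40 and 0.04 for Irf4. These values pool both tissues, and r was not computed within a tissue. Splenic clusters 7 and 8, lowest in Il10 (51.5 and 122 CPM), had 4.41 and 7.001 CPM of Prdm1. In the small intestine Prdm1 ranged only from 96.1 to 73.8 CPM, in another order of clusters than Il10 (766 to 283 CPM). Clusters of a tissue share a library, and these values are a description. Among 4037 genes with at least 500 UMIs, those most like Prdm1 were Gbp7 (0.97), Tnfrsf1b (0.95) and S100a11 (0.94). Those most like Maf were Ier5 (0.94), Rnf115 (0.92) and Rab11b (0.92), and those most like Ahr were Smco4 (0.91), Twf1 (0.90) and Nfkb1 (0.90). For Batf they were Rhoa (0.91), Stx11 (0.90) and Sec62 (0.89), and for Nfil3 Dynlt3 (0.91), Mdfic (0.89) and Stx11 (0.88). The likeness was lower for Bhlhe40, with Snx1, 2700097O09Rik and Cyb5r3 (0.83 each), and for Irf4, with Hnrnpa0 (0.80), Kcnq1ot1 (0.78) and Cdc40 (0.76).

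Cells with a UMI of a lineage or effector gene were set against cells without one, at 2000 UMIs. The 129 intestinal cells with Cd8b1 had 128 CPM of Maf against 581 CPM in the others (log2 ratio -2.18, -2.73 to -1.69) and less Bhlhe40 (-1.17, -1.74 to -0.65), while Prdm1 was at 85.3 against 89.3 CPM. The 40 intestinal cells with Il17a, the Th17 cytokine, had more Ahr (1.58, 0.53 to 2.48), Nfil3 (0.96, 0.07 to 1.74), Batf (0.73, 0.06 to 1.34) and Maf (0.71, 0.33 to 1.06). Behind the first values were 11 Ahr and 14 Nfil3 UMIs. The 8 splenic cells with Il17a had less Maf (-1.47, -3.34 to -0.11, 4 UMIs) and more Bhlhe40 (2.11, 0.47 to 3.36, 5 UMIs).

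The 457 intestinal cells with Ifng had less Ahr (-0.73, -1.37 to -0.13) and more Bhlhe40 (0.29, 0.06 to 0.53), and the 119 splenic ones more Maf (0.49, 0.28 to 0.69). The 190 splenic cells with Cxcr5, the chemokine receptor of follicular helper cells, had more Maf (0.39, 0.21 to 0.56) and Ahr (0.65, 0.08 to 1.18). In the 412 splenic cells with Gzmb, the gene of granzyme B, Prdm1 (0.61, 0.18 to 1.03) and Nfil3 (0.58, 0.20 to 0.97) were higher and Irf4 was lower (-0.58, -1.07 to -0.12). Between the 111 splenic cells with a Foxp3 UMI and the other 1335, the interval of the ratio held 0 for all 7 factors, from -0.89 for Irf4 (-1.97 to 0.02) to 0.39 for Prdm1 (-0.36 to 1.06). Before thinning, 280 of 1469 splenic cells had a Foxp3 UMI, so that the other 1335 held some of them. The 7 factors are thus not shown to be alike in Foxp3 cells and others. Splenic cluster 1, highest in Foxp3, had 26.3 CPM of Bhlhe40 (19.0 to 35.6), against a median of 63.9 CPM over the 8 clusters. Only 16 intestinal cells had a Foxp3 UMI.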

How the data were processed

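The members and the gene lists were chosen with earlier results of these data known. Per the study's methods, the authors trimmed the reads with Trimmomatic, aligned them to Mm10 with CellRanger and counted UMIs, and the deposited counts are whole numbers without normalization, over barcodes from before the filters on cells described next. Cells more than 3 MAD below the median log UMIs or log genes, or as far above it in mitochondrial share, were removed (135 intestinal and 90 splenic), then G2/M cells of cyclone (61 and 179). Pooled size factors (R 4.3.3, scran 1.30.0) scaled the genes whose mean count reached 0.05. Highly variable genes (64 and 119, biological variance over 0.05, false discovery rate under 0.05) without Il10 and the 7 factors gave 20 principal components and Louvain clusters on shared neighbours (bluster 1.12.0, 10 per cell). Cells were thinned without replacement to 2000 UMIs (Python 3.11.15, numpy 2.4.6), leaving out 108 intestinal and 23 splenic cells. The ratio and its interval were tested on simulated UMI totals in which some genes had a known fold. The simulation held no variation between cells and no Il10 classes made by thinning, so it could not test for these. Intervals used scipy 1.17.1.

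Named were the 7 factors and Il10, of each list the counts past 1.5-fold and up to 4 examples with the largest ratios among genes with at least 50 UMIs, and the 3 genes most like each factor. Scrublet (scanpy 1.11.5) called 4 doublets in each library, which were left out only as an alternative. Other alternatives changed the cells, the total, the depth, the thinning and the classes. Promoter sequences are from RefSeq, gene positions from the GENCODE annotation of GRCm38, and all 7 genes matched by identifier. The libraries of other kinds in the study were not analysed here.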

Additional observations from a re-analysis of the deposited data

Results flagged for a closer look

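The tables also list sequences of reporter genes, which enter no comparison above. The sequence of mRFP, the reporter of Foxp3, had 153 UMIs in 128 of 1738 splenic barcodes and 10 UMIs in 10 of 1474 intestinal ones, above the 3 UMIs that a count of 0 allows. TurboFP635, which is not named as part of these mice, had 7 UMIs in 6 intestinal barcodes and 0 UMIs in the spleen. The sequence of eGFP, the reporter by which the cells were sorted, had 6 intestinal and 8 splenic UMIs and could not divide the cells. Why these sequences were found at these levels was not tested.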

How the results depend on the processing

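The tissue log2 ratios of all 7 factors kept their sign in 9 of 9 settings (Irf4 1.89 to 2.10, Batf 0.95 to 1.10, Bhlhe40 -1.94 to -1.62). The interval nevertheless held 0 for Nfil3 at 2000 UMIs (-0.39 to 0.15) and for Maf without cells with both Cd8a and Cd8b1. The sign with Il10 was kept in 20 of 20 settings for Maf in both tissues and for splenic Prdm1, Nfil3, Batf and Irf4. It was kept in 18 for intestinal Bhlhe40 and in 10 to 19 for the others. Not every setting could change a sign. Leaving out cells with both Cd8a and Cd8b1 kept all 1469 splenic cells. Classes by Il10 and eGFP UMIs added only 5 intestinal and 1 splenic eGFP UMIs. Values that lay outside the counting interval of the result reported above follow, and the cause was not tested. They are log2 ratios of spleen over small intestine or of 2 or more Il10 UMIs over 0. Values within clusters had no interval. The intervals of the other values overlapped the reported ones, with these exceptions. They were tissue Maf without cells with both Cd8a and Cd8b1 (-0.03 to 0.10) and splenic Ahr at 1000 UMIs (0.81 to 2.26). For the tissues, Maf was at 0.036 without cells with both Cd8a and Cd8b1, 0.15 with a total without mitochondrial, ribosomal and top genes and 0.37 at 2000 UMIs, and Bhlhe40 at -1.62 without Foxp3 cells. With G2/M cells kept, splenic Prdm1 was at 0.66 and Batf at 0.63, with all barcodes splenic Bhlhe40 at -0.83, and without Foxp3 cells splenic Maf at 0.59. At 1000 UMIs per cell, intestinal Bhlhe40 turned to -0.040, and splenic Maf was at 0.63, Ahr at 1.55 and Bhlhe40 at 0.70. At 3000 UMIs intestinal Ahr was at 0.47 and splenic Bhlhe40 at 0.41. Over the other thinnings, intestinal Ahr was at 0.36 and 0.39 and Prdm1 at -0.51, and splenic Maf at 0.58 and 0.65 and Nfil3 at 0.36 and 0.53. For cells with 1 Il10 UMI over 0, intestinal Maf was at 0.37 and Bhlhe40 turned to -0.020, and splenic Ahr was at -0.26 and Nfil3 at 0.53. Within clusters, intestinal Maf was at 0.36 and splenic Maf at 0.16, Prdm1 at 0.69 and Batf at 0.16.

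At 2-fold the shares of all genes past the limit were 13.6% and 10.4% (tissue), 0.301% and 0.427% (small intestine) and 0.94% and 1.22% (spleen), and with genes of at least 20 UMIs 8.3% and 8.15% in the small intestine and 9.49% lower in the spleen. The mean of 20 thinnings and the comparisons within clusters and depth bins were chosen after seeing the data. No paired analysis was possible because each tissue had 1 library. Depth limits the low factors most, as intestinal Irf4 had 44 UMIs in all at equal depth.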
